A study of Mus musculus with 4 samples.

Results

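The peaks described here are m6A peaks of mouse spinal cord that lie in the first exon of transcripts with several exons. A peak was taken when its annotation placed it in an exon, outside the untranslated regions (UTRs), and gave that exon as number 1 of at least 2. In the list of the chronic constriction injury (CCI) group, 1204 of 33556 peaks met this rule. In the sham list, 1282 of 34406 peaks met it.

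All libraries came from male C57BL/6J mice aged 6 to 8 weeks, with spinal cord taken on day 7 after surgery. In CCI, a model of neuropathic pain, silk thread was tied loosely around the sciatic nerve, and sham mice had the same surgery with no ligature. Each group gave 1 library of poly(A) RNA fragments captured with an antibody against m6A (IP) and 1 library of the same RNA before capture (input). The number of mice behind a library is not given in the sources used here, and without read counts in the files the depth is unknown. As each group had 1 IP library, differences between the groups could not be tested, and they are given as values. The value of a peak is its fold enrichment, the authors' ratio of IP over input.

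N6-methyladenosine is a methyl mark that a complex around METTL3 and METTL14 places on adenosines of mRNA, and that FTO and ALKBH5 can remove. The mark is densest near stop codons and in long exons, and is sparse close to exon junctions. A first exon begins where transcription starts. Genes with several promoters, among them the clustered protocadherins of neurons, make transcripts that differ in their first exon.

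First-exon peaks made up 3.59% of the CCI list (95% Wilson interval 3.39 to 3.79) and 3.73% of the sham list (3.53 to 3.93). These intervals, like all intervals of shares given here, cover counting error only. The peaks were listed under 929 genes in CCI and 975 in sham, and 644 genes were shared, which is 69.3% of the CCI genes and 66.1% of the sham genes. Most of these genes carried a lone first-exon peak, 770 in CCI and 804 in sham. At least 3 were listed for 35 and 42 genes.

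The median fold enrichment of first-exon peaks was 5.57 in CCI (95% interval over peaks 5.14 to 6.02) and 5.73 in sham (5.35 to 6.20). Over all peaks the medians were 5.73 and 5.70. First-exon peaks were therefore of ordinary strength for these lists. They lay below the peaks of the 5′-UTR, with medians of 8.51 and 8.21, and above those of internal exons, with medians of 3.98 and 3.95. The interquartile range of first-exon peaks ran from 3.17 to 11.3 in CCI and from 3.14 to 12.8 in sham. Genes and peaks are not replicates, so these intervals describe the lists and not the animals.

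The transcript whose exon held the peak had a median of 4 exons in both lists, and up to 83 in CCI and 92 in sham. The median peak covered 181 exonic bases in each list, against 211 and 239 over all peaks. Peak length went along with strength and with presence in the other list. In CCI, the 317 peaks of up to 120 bases had a median fold enrichment of 3.52, and 55.5% of them had a partner in sham (50.0 to 60.9). The 153 CCI peaks of over 480 bases had a median of 11.6, and 99.3% had a partner (96.4 to 99.9). In sham, the 328 short peaks had a median of 3.49 and 37.5% with a partner (32.4 to 42.9), and the 185 long peaks a median of 11.2 and 97.8% (94.6 to 99.2). Long first-exon peaks were thus the strong and shared ones in both lists.

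Peaks that touched the start of the listed transcript were a minority, 26.2% in CCI (23.8 to 28.7) and 27.1% in sham (24.8 to 29.6). This share was 61.9% and 62.5% for 5′-UTR peaks and 15.4% and 16.5% over all peaks. First-exon peaks at the start had a median fold enrichment of 6.60 in CCI and 7.04 in sham. Those over 2000 bases from the listed start, 296 and 318 peaks, had medians of 5.76 and 5.02. The distance is that of the peak, and a peak far from the start can lie in a long first exon that begins there.

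By the biotype in RefSeq, 9.14% of first-exon peaks in CCI (7.64 to 10.9) and 9.36% in sham (7.89 to 11.1) were listed under long noncoding RNA (lncRNA) genes, against 2.23% and 2.52% over all peaks. It was 11.9% and 13.5% of last-exon peaks and 10.7% and 10.9% of single-exon peaks, so that a high share was not particular to first exons. Protein-coding genes took 80.1% and 79.6%, against 94.1% and 93.5% over all peaks. The median fold enrichment was 6.44 and 7.96 in lncRNA genes and 5.21 and 5.23 in protein-coding genes. A further 8.89% and 9.28% were listed under names with no match in that table.

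The gene listed for a peak was not always the gene whose exon the annotation named. The genes differed in 217 of 1204 CCI peaks (95% interval 16.0% to 20.3%) and in 230 of 1282 sham peaks (17.9%, 15.9 to 20.1). Among all other exon peaks they differed in 7.43% and 8.20%, made up of 22.4% and 23.0% of single-exon peaks, 12.6% of last-exon peaks in sham (in CCI, 95% interval 10.9% to 13.3%) and 3.68% and 4.10% of internal-exon peaks. Without the protocadherin region of chromosome 18, which held 69 and 73 of these first-exon peaks, the share of first-exon peaks was 13.2% in both lists, close to that of last-exon peaks. The files pair the exon's gene with a name in 67 of the 217 first-exon peaks in CCI and 78 of the 230 in sham, and in 54 and 64 of them it ran on the strand opposite to the listed gene. The tables give no strand for the peak itself, so for such peaks the transcript that carried the mark cannot be named. Names below are those of the listed gene unless stated.

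Of 36 marker genes of cells in and around the spinal cord, 32 had a peak of some class in CCI and 33 in sham. All 7 markers of oligodendrocytes and all 6 of microglia had one, as did 8 of 9 neuronal markers, with Nefl the exception in both lists. Of 5 markers of Schwann cells and sensory ganglia, 3 had a peak in CCI and 4 in sham. First-exon peaks were listed for Cnp alone in CCI and for Cnp, Slc1a2 and Prph in sham. Of all genes with a peak, 929 of 12408 in CCI and 975 of 12907 in sham had a first-exon peak. Both peaks listed under Cnp lay in an exon of Dnajc7. The transcripts are those of the labelled tissue, and a peak list does not measure how much of each cell type was present.

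Sfpq, which encodes a splicing factor of nuclear paraspeckles, had the highest value among first-exon peaks in both lists, 282 in CCI and 202 in sham, over the same 359 bases at chr4:127021592-127021950 in exon 1 of 10 (coordinates on GRCm38). Samd1, a protein that binds unmethylated CpG-rich DNA, followed with 155 in CCI and 160 in sham. Cpeb2, which controls translation through the 3′ ends of mRNAs, had 113 and 120, in a peak of 1409 bases in CCI and 959 in sham. These peaks stood far above the median of their lists in both libraries, and the values of Samd1 and Cpeb2 were nearly equal between them.

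Cdk13, a kinase of transcription elongation, had 99.6 in CCI and 79.0 in sham over the same 900 bases. Phlda1 had 126 in CCI and 91.9 in sham, where the partner was annotated as 3′-UTR. Foxo1, a forkhead factor downstream of insulin signalling, had 59.4 in CCI and 127 in sham. Foxo1 thus had less than its sham value in CCI by a log2 ratio of -1.10, while Sfpq and Phlda1 were higher in CCI, by 0.48 and 0.46.

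Other top peaks lay in noncoding genes, under names with no match in RefSeq or in exons of a gene other than the listed one. AC241534.1, a name with no match, had 116 in CCI and 106 in sham, and Rab10os, an lncRNA antisense to Rab10, had 98.5 and 60.4. The lncRNA Gm20544 had 34.7 in CCI and 113 in sham. A peak listed under Nrn1, a gene for a small protein that promotes neurite growth, had 103 and 132, but the exon belonged to a gene that the files do not name. A peak listed under Gm22877 had 97.5 and 146, and its exon was that of Slain1, a microtubule-associated protein. Gm20544 differed between the lists by a log2 ratio of -1.70, and the others named here by less than 2-fold.

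Clustered protocadherins were a large group. These cadherin-like adhesion proteins give each neuron a surface identity, and every alpha and gamma isoform starts from its own long variable exon, which is then spliced to shared constant exons. In the region chr18:36931290-37841873, 85 of 286 CCI peaks (29.7%, 24.7 to 35.3) and 90 of 321 sham peaks (28.0%, 23.4 to 33.2) were first-exon peaks. They were 7.06% of all first-exon peaks in CCI and 7.02% in sham. The share within the region was well above that of the whole lists. The intervals count overlapping peaks separately, and this difference was not tested.

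The first-exon peaks of this region were listed under only 10 names, while the annotated exons belonged to 32 genes in CCI and 31 in sham. Over both lists together Pcdha3 was the name with most first-exon peaks, 18 in CCI and 18 in sham, and the exon was its own in 3 and 2 of them. Pcdhgb2 had 17 and 18, Gm26672 15 and 19, and Pcdha11 10 and 9. Counts under a listed name therefore say little about that isoform. Overlapping peaks were also listed more than once, so that the 85 and 90 peaks stood for 76 and 78 separate places.

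Placed by the nearest gene start upstream in RefSeq (GRCm38.p6, within 4000 bases), the peaks spread over most alpha and gamma isoforms. In the alpha cluster, 12 of 14 starts had a peak in CCI and 11 in sham, and in the gamma cluster 19 of 21 had one in each list. Placement and annotation did not always name the same isoform, and 1 CCI peak and 2 sham peaks annotated in the exon of Pcdha11 were placed at Pcdha10. None of the 22 beta genes had one. Beta protocadherins are largely encoded in a lone exon, and the rule asks for at least 2. By this placement Pcdhga3 had a fold enrichment of 28.1 in CCI and 13.5 in sham, Pcdhga4 had peaks of up to 22.6 and 24.1, and Pcdhga7 of up to 12.8 and 28.5. In the alpha cluster, Pcdha12 reached 21.1 and 18.9 and Pcdha1 16.2 and 15.1. Pcdha4 held 8 and 10 peaks, each overlapping another of the same list, with none above 9.38 in CCI and 6.97 in sham. Isoforms thus differed severalfold among themselves. These isoforms, and genes below outside the naming rule, were chosen after their values were seen, and no isoform named here had a peak in one list alone.

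Over the 61 pairs of CCI and sham peaks in the region, the median log2 ratio of fold enrichment was 0.19, with quartiles of -0.30 and 0.58. The CCI value was lower in 25 of the 61 pairs, at least 2-fold higher in 7 and at least 2-fold lower in 4. Over all pairs of any class, 8.58% were at least 2-fold higher in CCI and 7.23% at least 2-fold lower, and the counts of gene lists given next are to be read against these shares.

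Other large cadherins also start with a long coding exon. In this list, 26 of 133 CCI peaks (19.5%, 13.7 to 27.1) and 33 of 143 sham peaks (23.1%, 16.9 to 30.6) were first-exon peaks, in 11 genes of each list. Fat4, a planar polarity cadherin, had 7 peaks in CCI and 12 in sham, all in its own exon 1 of 17. Its strongest CCI peak, of 17.2, paired with a sham peak of 3.49, and its strongest sham peak, of 44.2, had no partner. Celsr3, which guides axons, had a peak of 24.4 in CCI over 3772 bases and 23.2 in sham over 1886 bases, and Celsr1 had 14.6 and 13.9. Of 19 pairs in the list, 3 were at least 2-fold higher in CCI and 1 was at least 2-fold lower, where 8.58% and 7.23% of all pairs were.

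Insulin receptor substrates, adaptors whose coding sequence lies almost wholly in the first exon, had a similar share. First-exon peaks were 8 of 34 peaks in CCI (23.5%, 12.4 to 40.0) and 9 of 30 in sham (30.0%, 16.7 to 47.9) in the list of these genes and the Spry and Spred inhibitors of receptor kinases. Irs1 had 3 such peaks in each list, and its longest pair had 5.88 in CCI over 450 bases and 7.03 in sham over 570. Irs2 had 4 and 2, and a CCI peak of 10.1 that paired with a sham peak of 15.7 annotated as 5′-UTR. Irs4 had 3 first-exon peaks in sham, of up to 15.1, and none in CCI. None of the 5 pairs differed by 2-fold.

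Among Hox genes, which hold the segmental identity of spinal neurons, 10 of 99 peaks in CCI (10.1%, 5.58 to 17.6) and 10 of 82 in sham (12.2%, 6.76 to 21.0) were first-exon peaks, in 9 and 8 genes. Hoxb4 led with 38.6 in CCI and 60.4 in sham. Hoxc6 had 8.78 and 13.4, Hoxd1 10.9 and 8.13, and Hoxd11 12.5 with a sham partner of 17.4 in the 5′-UTR. Of 9 pairs, 1 was at least 2-fold higher in CCI and none was at least 2-fold lower. The other homeodomain, Sox and Zic factors had 9 of 201 and 11 of 211, a share of 4.48% and 5.21%, with Onecut1 at 10.4 and 18.6, Zic2 at 11.7 and 15.7 and Six5 with a 5′-UTR peak of 9.90 in CCI and a first-exon peak of 11.6 in sham. The antisense gene Irx3os was higher in CCI by a log2 ratio of 0.22, with 14.6 in sham. Of the 8 pairs, 4 were lower in CCI and none was past 2-fold.

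Zinc finger genes had 28 of 956 peaks in CCI (2.93%, 2.03 to 4.20) and 28 of 1015 in sham (2.76%, 1.92 to 3.96), with intervals that include the share of the whole lists. Of these, 8 and 10 peaks were listed under Zfp106 but lay at 4 and 5 places in an exon of another gene that the files do not name. Of the 24 pairs in the list, 5 were at least 2-fold lower in CCI and none was at least 2-fold higher, where 7.23% and 8.58% of all pairs were. Zfp704 had 10.7 in CCI and 75.5 in sham over the same 211 bases. Zfp831 had 7.30 over 181 bases and 24.4 over 571, and a second Zfp831 pair had 14.1 in CCI and 18.6 in sham. Zfp768 had 6.19 over 505 bases and 96.4 over 891 in a sham peak of the 5′-UTR. Zfp318 was higher in CCI, with 40.7 in a 5′-UTR peak against a first-exon peak of 29.1 in sham. Among the pairs with the highest sham value in each of these 4 genes, that of Zfp704 alone had equal borders in both lists.

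Potassium channels had 12 first-exon peaks among 251 in CCI (4.78%, 2.76 to 8.17) and 9 among 249 in sham (3.61%, 1.91 to 6.73). Kcnq3, a subunit of the M-current that restrains repeated firing, had 36.0 in CCI and 82.5 in sham. Kcnn3, a calcium-activated channel, had 22.4 and 27.0, and Kcnd2, an A-type channel, 7.93 and 9.04. Of the 10 pairs in the list, 7 were lower in CCI, where 47.8% of all pairs were. At least 2-fold lower were 2 and none was at least 2-fold higher, where 7.23% and 8.58% of all pairs were.

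Other genes of neuronal signalling had small counts. Sodium and calcium channels had 1 of 138 peaks in CCI and 2 of 126 in sham, with Scn1a at 5.79 and 5.22. Glutamate receptors had 2 of 88 and 5 of 96, with Grin1 at 2.03 and 1.67 and Grm4 at 1.96 in CCI and 3.60 in a sham partner of the 5′-UTR. The list of GABA and glycine genes had 2 of 54 and 1 of 55, all listed under Glra1 in an exon of Gm12236. Immediate early genes had 1 of 57 and 1 of 59, Arc at 4.63 in CCI and Dusp1 at 2.71 in sham. Among genes of the neuronal cytoskeleton and of axon growth, 2 of 82 and 1 of 75 were first-exon peaks, and Nefh, the heavy neurofilament chain, had 17.7 in CCI and 8.25 in sham. The 95% intervals of the shares of these 5 lists all include the 3.59% and 3.73% of the whole lists.

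In the m6A machinery, 5 of 51 peaks in CCI (9.80%, 4.26 to 21.0) and 8 of 54 in sham (14.8%, 7.70 to 26.6) were first-exon peaks, listed under 3 genes. Overlapping peaks were counted separately, and these peaks stood for 4 and 7 separate places. Rbm15, which recruits the methyltransferase complex to RNA, had 12.8 in CCI and 15.0 in sham, in peaks of 869 bases each that shared 839. Alkbh5, the only 1 of 26 genes named in the study's text to have a first-exon peak, had 4.32 in CCI at chr11:60538439-60538798 and 4.86 in sham. It had a further sham peak of 6.39 over 61 bases with no partner. Peaks listed under Cbll1 had up to 73.2 and 53.1, but the exon belonged to a gene that the files do not name. None of the 5 pairs differed by 2-fold. The list of splicing factors, which does not hold Sfpq, had 4 of 70 and 4 of 68. Hnrnpu had 9.03 and 12.8, Hnrnpll 5.98 and 4.88, Hnrnpdl 2.53 and 3.64 and Srsf11 5.05 and 2.88. No pair of this list was past 2-fold.

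Within a gene, the strongest first-exon peak was set against the strongest 3′-UTR peak of the same gene, where the exon's gene was the listed gene. The first-exon peak was the higher in 178 of 504 genes in CCI (35.3%, 31.3 to 39.6) and in 175 of 513 in sham (34.1%, 30.1 to 38.3), with median log2 ratios of -0.81 and -0.76. Against 5′-UTR peaks it was the higher in 29.8% of 255 genes and 30.5% of 275, with 95% intervals of the median log2 ratio of -1.34 to -0.73 in CCI and -1.41 to -0.70 in sham. Against internal exons the shares were 51.4% of 255 and 48.7% of 261, with medians of 0.07 and -0.12. The strongest peak of a class also depends on how many peaks of that class a gene has, which differs between classes, and the part of this in these shares was not tested. In 182 of 822 genes in CCI (22.1%) and 201 of 871 in sham (23.1%) the gene had no peak of another class.

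A partner is a peak of the other list that shares at least 1 exonic base on the same strand of the listed gene. In CCI, 960 of 1204 first-exon peaks had one (79.7%, 77.4 to 81.9), and in sham 906 of 1282 (70.7%, 68.1 to 73.1). Over all peaks the shares were 87.1% and 83.3%. First-exon peaks were less often shared than peaks at large in both lists, by intervals that do not overlap. Single-exon peaks had a like share, 81.3% and 68.0%, so that this was not particular to first exons. Peaks without a partner were weaker, with a median fold enrichment of 4.50 against 5.78 in CCI and 4.83 against 6.19 in sham, and shorter, with a median of 119 against 238 bases in CCI and 120 against 240 in sham. Their listed gene still had a peak in the other list in 80.3% and 76.9% of cases. For unpartnered peaks of all classes together it was 84.0% in CCI and 77.0% in sham. Those peaks were also shorter than peaks with a partner, and weaker. Their median fold enrichment was 3.26 against 6.14 in CCI and 4.18 against 6.02 in sham.

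By the rule for named genes, the strongest unpartnered peaks of CCI were in Pdap1 at 28.7, Rsph4a, a radial spoke protein of motile cilia, at 28.1, and Gm9987 at 25.0. Those of sham were in Nemp2 at 48.8, Fat4 at 44.2 and the lncRNA Gm17344 at 39.5. The values named for sham were thus higher than those for CCI. They are the top of sets of different size, 376 unpartnered peaks in sham and 244 in CCI, with medians of 4.83 and 4.50.

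Where each peak was the best match of the other, the partners formed pairs, 934 of them with a first-exon peak on at least 1 side and 769 with one on both. The CCI peak of a pair kept the class first exon in its sham partner in 89.1% of 863 cases (86.9 to 91.0), and 64 of the sham partners were annotated as 5′-UTR. The sham peak kept it in 91.5% of 840 (89.5 to 93.2), and 37 of the CCI partners were annotated as internal exon and 21 as 5′-UTR. The same place was thus not always given the same class in both lists.

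Across the 934 pairs, fold enrichment in CCI relative to sham had a median log2 ratio of -0.07 (95% interval over pairs -0.12 to -0.04), with quartiles of -0.50 and 0.34. Over all 27236 pairs it was 0.03 (0.02 to 0.04). The CCI value was lower in 512 of the 934 pairs (54.8%, 51.6 to 58.0), against 47.8% of all pairs. Each list had its own input library and its own peak borders, and their part in these ratios was not tested. Pairs with 5′-UTR peaks on both sides had a median of -0.07, and pairs with 3′-UTR peaks on both sides a median of 0.06. With first-exon peaks on both sides the median was -0.05 (-0.09 to 0.00), and with at least 50% overlap it was -0.05 (-0.08 to 0.01). These intervals reached or included 0. In the 4 other settings run the interval lay below 0. It was -0.12 to -0.04 with a false discovery rate below 0.01 in both lists. When centred on all pairs it was -0.14 to -0.06. Without regard to strand it was -0.12 to -0.04, and without the protocadherin region -0.13 to -0.04. Pairs are not replicates of a group, so none of these intervals tests CCI against sham.

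Of the 934 pairs, 71 were at least 2-fold higher in CCI (7.60%, 6.07 to 9.48), where 8.58% of all pairs were. At least 2-fold lower in CCI were 96 (10.3%, 8.49 to 12.4), where 7.23% of all pairs were. The share of higher pairs was close to the background, and that of lower pairs lay above it. With first-exon peaks on both sides, 71 of 769 pairs were at least 2-fold lower (9.23%, 7.38 to 11.5) and 57 at least 2-fold higher (7.41%). With one on a single side, 25 of 165 were at least 2-fold lower (15.2%). The share of lower pairs was also above the background in pairs with 5′-UTR peaks on both sides, at 12.3%, and with single-exon peaks on both sides, at 12.2%. In those classes, unlike first-exon pairs, the share of higher pairs was above the background as well, at 11.2% and 12.7%. When only pairs with at least 50% overlap of both peaks were counted, 65 of 796 were at least 2-fold lower (8.17%, 6.46 to 10.3). Of all such pairs of any class 6.20% were, so that the gap was smaller. In lncRNA genes the median log2 ratio was -0.28 (-0.41 to -0.10) over 80 pairs, and in protein-coding genes -0.05 (-0.09 to 0.00) over 758. Pairs with a peak at the listed start had a median of -0.14 over 338, and the others -0.04 over 596.

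The largest differences towards CCI, among pairs in which both peaks were first-exon peaks with a false discovery rate below 0.01 against input, ran from a log2 ratio of 2.35 to 3.63. Bdh1, the mitochondrial enzyme that converts ketone bodies, was listed for a peak of 48.0 in CCI and 3.87 in sham (log2 ratio 3.63), in an exon of a gene that the files do not name. Rac1, a GTPase of the actin cytoskeleton, had 20.3 and 2.58 (2.98), in peaks that shared 90 of 120 bases. The anion transporter Slc26a11 had 34.4 and 5.81 (2.57). Acsl6, which activates fatty acids in the brain, had 42.5 and 8.13 (2.39), Hexdc, a hexosaminidase, 18.8 and 3.70 (2.35), and A930017M01Rik 16.2 and 2.06 (2.98). In 4 of these 6 pairs the CCI peak was the longer.

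The largest differences towards sham among the same kind of pairs, with first-exon peaks on both sides, ran from a log2 ratio of -3.01 to -2.45. A peak listed under the lncRNA Flicr, in an exon of Ppp1r3f, had 7.51 in CCI and 60.4 in sham (-3.01). Pex6, an ATPase of peroxisome assembly, had 1.80 over 91 bases and 13.9 over 330 (-2.95), and Hcn4, a pacemaker channel, 5.73 over 91 bases and 39.5 over 391 (-2.79). Hjurp, a chaperone of the centromeric histone, had 3.21 in CCI over 60 bases and a sham peak of 150 bases (-2.49), Cnnm1 3.77 over 480 bases and 20.6 over 929 (-2.45), and Zfp704 was named above (-2.82). Except for Zfp704, the sham peak was the longer in each of these pairs. The part of the borders in these values was not tested.

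Sequence could be read for a few first-exon peaks, those that reach into the RefSeq promoter windows of GRCm38.p6 (300 bases, from 250 before to 50 after a gene's start). With at least 50 bases covered, and the exon's gene as the listed gene, these were 33 peaks in CCI and 37 in sham. The windows used here do not cover the protocadherin region, so its peaks could not be among them. GGACT, the core of the m6A consensus, occurred on the strand of the listed gene in 7 of 33 (21.2%, 10.7 to 37.8) and 7 of 37 (18.9%, 9.48 to 34.2). Its reverse complement AGTCC occurred in 3 and 4 of them. As the peaks carry no strand, the listed gene's strand need not be the strand that carried the mark. Per 1000 bases, GGACT was found 1.92 and 1.97 times in these stretches, 1.16 and 1.26 times in the covered stretches of peaks of all classes, and 1.03 times in all 32851 windows, of which 26.1% held it. With so few peaks, the intervals are wide and no difference can be read from them.

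The stretches of at least 100 bases that lay inside the peak of both lists and held GGACT are shown with that motif in capitals. Each runs 5′ to 3′ on the strand of its listed gene, which need not be the strand of the mark. These stretches were chosen for holding the motif and show where its letters sit in the covered part of the peak. A match is not a measured site. As 250 of the 300 bases of a window lie before the RefSeq start, the stretches lie mostly or wholly before it. The 2810428I15Rik peak (RefSeq Rex1bd) had a fold enrichment of 15.1 in CCI and 24.4 in sham at chr8:70506377-70506676, minus strand. That of Cdc14b, a phosphatase of the cell cycle, had 22.8 and 15.8 at chr13:64275050-64275238, minus strand, and that of the lncRNA Gm11946 had 7.91 and 8.64 at chr11:3530114-3530282, plus strand. The lncRNA D430036J16Rik had 4.59 and 5.48 at chr9:81631680-81631938, plus strand, and AC126408.1 (RefSeq Gm46416) had 2.71 and 3.42 at chr13:55535856-55536044, plus strand.
2810428I15Rik: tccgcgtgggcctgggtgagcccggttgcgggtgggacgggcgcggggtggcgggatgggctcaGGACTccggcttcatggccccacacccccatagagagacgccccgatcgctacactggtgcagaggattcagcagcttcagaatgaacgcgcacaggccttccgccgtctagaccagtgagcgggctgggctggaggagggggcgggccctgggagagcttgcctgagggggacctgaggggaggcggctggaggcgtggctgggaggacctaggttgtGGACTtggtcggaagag
Cdc14b: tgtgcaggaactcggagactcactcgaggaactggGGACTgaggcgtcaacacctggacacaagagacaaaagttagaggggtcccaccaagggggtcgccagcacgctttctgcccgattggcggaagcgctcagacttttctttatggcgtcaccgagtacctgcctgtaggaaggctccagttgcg
Gm11946: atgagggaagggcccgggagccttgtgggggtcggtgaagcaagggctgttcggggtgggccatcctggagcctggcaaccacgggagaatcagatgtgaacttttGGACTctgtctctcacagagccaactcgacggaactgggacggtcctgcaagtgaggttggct
D430036J16Rik: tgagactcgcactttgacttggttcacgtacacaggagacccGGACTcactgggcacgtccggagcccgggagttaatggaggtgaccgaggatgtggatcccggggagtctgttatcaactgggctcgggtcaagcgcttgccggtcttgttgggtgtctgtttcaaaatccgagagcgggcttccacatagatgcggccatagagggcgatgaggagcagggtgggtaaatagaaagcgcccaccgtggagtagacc
AC126408.1: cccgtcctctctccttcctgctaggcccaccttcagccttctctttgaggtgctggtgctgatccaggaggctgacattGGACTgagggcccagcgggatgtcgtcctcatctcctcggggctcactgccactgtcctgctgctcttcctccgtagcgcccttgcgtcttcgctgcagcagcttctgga

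Among peaks with at least 100 bases of sequence in both lists, the strongest was that of Rab10os, at 98.5 in CCI and 60.4 in sham over the same 181 bases of exon 1 of 4. Of these bases, 144 lay in the window and before the RefSeq start, at chr12:3235541-3235684 on the plus strand. They held no GGACT and no GGAC.
Rab10os: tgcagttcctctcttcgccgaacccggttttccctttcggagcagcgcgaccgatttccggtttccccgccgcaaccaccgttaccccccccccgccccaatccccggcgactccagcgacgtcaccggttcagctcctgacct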

How the data were processed

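The deposited peak lists of CCI and sham were read as given, with each peak's exonic blocks, annotation and listed gene. The fold enrichment is a ratio of IP over input that the authors computed for 1 IP library against 1 input library per group. The score is the log10 of the false discovery rate of IP against input, as deposited by the authors. The sources differ on how the peaks were made: the submitters' notes name fastp, HISAT2, HOMER and ChIPseeker on GRCm38, the paper's methods name Cutadapt, bowtie and MACS2, and the column names are those of exomePeak. Another table holds the authors' own comparison of CCI with sham (log2 fold change, p and false discovery rate) and was not used here. Peaks sharing at least 1 exonic base on the listed gene's strand were partners, and mutual best matches by shared over joint bases were pairs. A pair was counted as different past 2-fold. Shares have 95% Wilson intervals and medians have order-statistic intervals. Both cover counting error only. Named genes, at a false discovery rate below 0.01, were the 8 strongest first-exon peaks with a partner in each list, the 6 largest differences in each direction among pairs with both peaks first-exon, and the 3 strongest peaks without a partner in each list. With no limit on that rate, they were also the 5 genes with most peaks, up to 4 genes per list by the sham value of their strongest pair, and genes named by the study. The members and lists were chosen with earlier results of these data known. Gene names, starts and promoter sequence were from RefSeq (GRCm38.p6), and 12526 of 12545 matched names (99.8%) lay over the listed gene. Starts matched far less often. Of 18150 transcripts, 3820 (21.0%) had the same start as in RefSeq and 5303 (29.2%) a start within 10 bases. The placement of isoforms and the promoter windows rest on the RefSeq starts. The code was tested on simulated data. Python 3.11.15, numpy 2.4.6, pandas 2.3.3 and scipy 1.17.1 were used.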

Additional observations from a re-analysis of the deposited data

How the results depend on the processing

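Of 54 alternative settings, 35 left the value within its 95% interval or, for counts of pairs, within 1.5 times the count, 19 moved it and 0 reversed it. Of these, 20 were chosen after seeing the data. The first-exon share became 4.55% in CCI and 4.55% in sham with each gene and class counted once, 2.62% and 2.68% with at least 3 exons, 3.36% and 3.50% without the clustered protocadherin region, and 3.03% and 3.16% where the listed gene was the exon's gene. The median fold enrichment became 6.20 and 6.39 among peaks of at least 2, and 6.24 in sham with the highest peak of each gene. The partner share became 64.1% and 58.8% when 50% of both peaks had to overlap, and 69.2% and 64.5% when the partner had to be a first-exon peak. At 1.5-fold, 146 pairs were higher in CCI (15.6%, where 18.8% of all pairs were) and 204 lower (21.8%, where 16.3% were). The shorter motif GGAC was in 48.5% and 45.9% of the peaks with sequence. These shifts follow from which peaks or letters each setting counts. The motif in the central 100 bases of peaks was not run, since it needs the genome sequence. No paired analysis was possible because a lone IP library stood for each group. The limits are the lack of replicates, the unknown depth and number of mice, separate inputs and borders for each list, peaks without a strand, and promoter windows that cover few of the peaks.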
